A study of Homo sapiens with 4 samples.

Results

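Open chromatin was examined at the genes of the cereblon drug axis and the Ikaros family: CRBN, DDB1, CUL4A, IKZF1, IKZF2, IKZF3, IKZF4 and IKZF5. Every peak of the 4 deposited peak lists that overlapped the body of 1 of these 8 genes, or the 20 kb on either side of it (hg38), was taken, which gave 49 regions of the 73729 formed by merging the lists. The rule uses no measured value, although the genes were proposed with earlier results of these data known. IKZF1 and IKZF3 held 12 regions each, IKZF2 8, IKZF4 7, DDB1 4, IKZF5 3, CUL4A 2 and CRBN 1.

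Cereblon, the product of CRBN, is the substrate receptor of a ubiquitin ligase built on the scaffold CUL4A, to which it is joined by the adaptor DDB1. Thalidomide, lenalidomide and pomalidomide bind cereblon and make the ligase take up new substrates, above all the zinc finger transcription factors Ikaros (IKZF1) and Aiolos (IKZF3), whose breakdown is toxic to myeloma cells. Helios (IKZF2), Eos (IKZF4) and Pegasus (IKZF5) are the remaining members of that family, and Helios is best known from T cells.

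ATAC-seq, which uses Tn5 transposase to insert tags into accessible DNA, had been run on AMO1, an established human plasma cell line from multiple myeloma. There were 4 groups with 1 library each: PHF19 overexpression (PHF19 plasmid transfected), empty vector (genotype WT, PCDH vector without insert), and an IFN PHF19 overexpression and an IFN empty vector library. PHF19 is an accessory factor of the Polycomb complex that methylates histone H3. The labels do not explain the title prefix IFN, list the same treatments for the prefixed libraries, and do not say whether a clone or a mixed population was used. The lists rested on 18.2 M (mega) fragments for PHF19 overexpression, 27.4 M for empty vector, 16.4 M for IFN PHF19 overexpression and 65.9 M for IFN empty vector, and the lowest peaks held 8, 10, 8 and 16 fragments in that order. The IFN empty vector list was thus the deepest, and its file header names another project folder than the other 3. Of 11 plasma cell markers 10 had a peak at the gene start in all 4 libraries (CD27 had none in any), with SDC1 at 295 fragments per M in PHF19 overexpression, 246 in empty vector, 314 in IFN PHF19 overexpression and 158 in IFN empty vector. SDC1 was thus higher with PHF19 overexpression in the unprefixed and the IFN pair (log2 ratios 0.37 and 0.83). The median over the 10 markers was lower in both (−0.29 and −0.24). Start peaks were also listed for 3 of 6 B cell markers (CD79B, BLK and CR2) and for none of the other 3, MS4A1 and PAX5 among them, in any library. They were listed for 2 of 7 T and NK cell markers, for 1 of 5 myeloid markers and, in PHF19 overexpression and both IFN-prefixed libraries, for 3 of 4 stromal, endothelial and epithelial markers, of which empty vector had 2. Of these, BLK was higher with PHF19 overexpression in both pairs (log2 ratios 1.02 and 0.80) and SPI1, a myeloid marker, was lower (−1.59 and −1.48), and their part in the results was not tested. No strand was given for BLK, SPI1, CD79B, CD3E, COL1A1, EPCAM, TNFRSF17 and SLAMF7. For these a peak at either gene end was counted, so it may lie away from the start. Peak lists do not measure PHF19 RNA or protein, so the overexpression itself was not checked. With 1 library per group no test between groups was made: intervals are exact 95% intervals for a ratio of 2 counts and cover counting error only, and a difference has no replicate check.

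Promoter sequences are shown for the genes whose start regions anchor the results below, since the summits of accessibility fell in them or just downstream. They are the 250 bases before the annotated start from RefSeq (GRCh38.p14), written 5′ to 3′ on the strand of the gene, and capitals mark GGGAA or its reverse complement TTCCC, the core that Ikaros proteins bind. CRBN is shown at chr3:3179718-3179967 (minus strand), DDB1 at chr11:61333106-61333355 (minus strand), IKZF1 at its first start at chr7:50304466-50304715 and its second start at chr7:50308450-50308699 (plus strand), and IKZF2 at chr2:213152457-213152706 (minus strand).
CRBN: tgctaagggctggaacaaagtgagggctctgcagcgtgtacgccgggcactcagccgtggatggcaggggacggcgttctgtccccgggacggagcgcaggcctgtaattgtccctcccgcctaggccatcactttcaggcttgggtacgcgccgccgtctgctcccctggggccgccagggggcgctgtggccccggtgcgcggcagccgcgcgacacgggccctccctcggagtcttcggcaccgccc
DDB1: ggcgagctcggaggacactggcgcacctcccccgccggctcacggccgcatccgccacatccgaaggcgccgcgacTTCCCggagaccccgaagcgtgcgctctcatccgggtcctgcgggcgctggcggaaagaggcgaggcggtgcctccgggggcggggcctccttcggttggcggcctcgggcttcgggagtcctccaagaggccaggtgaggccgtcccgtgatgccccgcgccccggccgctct
IKZF1, first start: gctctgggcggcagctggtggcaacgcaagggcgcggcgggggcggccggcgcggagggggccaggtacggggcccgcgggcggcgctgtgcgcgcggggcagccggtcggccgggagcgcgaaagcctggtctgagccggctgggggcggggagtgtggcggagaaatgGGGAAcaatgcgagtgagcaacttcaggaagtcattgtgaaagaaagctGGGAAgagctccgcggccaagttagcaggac
IKZF1, second start: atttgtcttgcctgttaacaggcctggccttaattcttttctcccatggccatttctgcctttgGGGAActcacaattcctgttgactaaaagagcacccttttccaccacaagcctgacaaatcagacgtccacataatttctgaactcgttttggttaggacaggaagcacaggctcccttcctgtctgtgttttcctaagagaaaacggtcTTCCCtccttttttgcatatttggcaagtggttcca
IKZF2: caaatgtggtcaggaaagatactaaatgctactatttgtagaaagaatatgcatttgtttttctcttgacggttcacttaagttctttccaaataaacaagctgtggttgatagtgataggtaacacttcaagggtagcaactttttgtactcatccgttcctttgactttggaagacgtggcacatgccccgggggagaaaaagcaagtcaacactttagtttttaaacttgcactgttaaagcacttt

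The CRBN and DDB1 promoters and the first IKZF1 promoter were rich in G and C (71.2%, 75.2% and 71.2%), whereas the second IKZF1 promoter had 45.2% and the IKZF2 promoter 38.0%. GGGAA was searched on both strands in all 17 promoters that the table lists for 7 of the 8 genes (it has none for IKZF3) and was found in 10, in CUL4A, DDB1, IKZF1, IKZF4 and IKZF5. It occurred in 60.9% of all 22131 promoters of the same length, so its presence is common. The interferon-stimulated response element occurred in none of the 17 and in 2.71% of all promoters. The ETS-IRF composite element, which can overlap GGGAA, was found in 1, an internal CUL4A promoter, against 2.17% of all. The ETS motif CCGGAAG was found in 2 (CUL4A and IKZF4; 10.7% of all), CCAAT in 1 (IKZF4; 32.7%), TATAAA in 1 (IKZF1; 9.0%), and the palindromic NRF1 motif (1.28%) and the E-box CACGTG (7.37%) in none. These matches describe the letters in these windows and nothing about binding.

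Of the 49 regions, 35 had a peak in PHF19 overexpression, 41 in empty vector, 37 in IFN PHF19 overexpression and 49 in IFN empty vector, and 33 had one in all 4. Every gene had at least 1 start region with a peak in all 4 libraries. In these bulk libraries, fewer cells with an open site and a less open site in each cell cannot be told apart.

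The genes of the ligase itself had open starts in every library, with differences that stayed under 1.5-fold in each comparison. The height of a region is its tallest pileup, the number of fragments over the summit, divided by the fragments of the library in M. CRBN had a single region, at its start (chr3:3179215-3180066, 852 bp), with 7.02 fragments per M in PHF19 overexpression and 7.31 in empty vector, and 8.12 in IFN PHF19 overexpression and 5.77 in IFN empty vector. The log2 height ratio, centred on the median of all regions shared by the compared libraries, was 0.05 (95% counting interval −0.28 to 0.38) for PHF19 overexpression against empty vector and 0.33 (0.03 to 0.62) for the IFN pair. The 2 unprefixed libraries were thus indistinguishable by counting error, and IFN PHF19 overexpression was slightly higher than IFN empty vector. The 4 summits lay 4, 15, 32 and 16 bases upstream of the start in the order above, inside the printed sequence. No other peak of any library lay in the CRBN body or within 20 kb of it.

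DDB1 (chr11:61299451-61333105), the adaptor, had its start region at chr11:61332242-61333836, which it shares with the start of the neighbouring TKFC. Its height was 7.35 fragments per M in PHF19 overexpression and 7.82 in empty vector, and 7.39 in IFN PHF19 overexpression and 5.77 in IFN empty vector, with log2 ratios of 0.02 (−0.30 to 0.34) and 0.19 (−0.12 to 0.49). Neither pair differed beyond counting error. The 1 region of the DDB1 window past 1.5-fold was at the start of VWCE, a neighbouring gene (chr11:61293565-61295123), which had 10.0 fragments per M in IFN PHF19 overexpression and 5.6 in IFN empty vector (log2 ratio 0.67, 0.40 to 0.94), but 8.12 in PHF19 overexpression and 7.49 in empty vector (0.23, −0.09 to 0.54).

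CUL4A (chr13:113208193-113267108), the scaffold, shares its start region (chr13:113208067-113210331) with PCID2. It had 6.36 fragments per M in PHF19 overexpression and 9.25 in empty vector, and 8.37 in IFN PHF19 overexpression and 6.16 in IFN empty vector. The first pair gave a log2 ratio of −0.43 (−0.76 to −0.10) and the IFN pair 0.27 (−0.02 to 0.56), so the pairs pointed in opposite directions at heights under 1.5-fold. The starts of the 20 other ligase partners and regulators on a fixed list, which holds RBX1, the neddylation genes and the COP9 signalosome, all had a peak in every library, and 0 of 20 passed 1.5-fold in any of the 4 comparisons. Over all shared regions of the genome, 1.81% to 12.8% passed it in a given comparison and direction. Of all regions with a peak in all 4 libraries 5.36% were lower in both PHF19 pairs, and 7.3% of those away from starts. Starts were thus called lower less often than other regions, and their own share was not computed. The median log2 ratio of the 20 starts was −0.11 for PHF19 overexpression against empty vector and −0.10 for the IFN pair, beside a centre of 0 over all regions. For DDA1 and COPS5, which were given no strand, either gene end counted as a start.

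**Figure D1:**
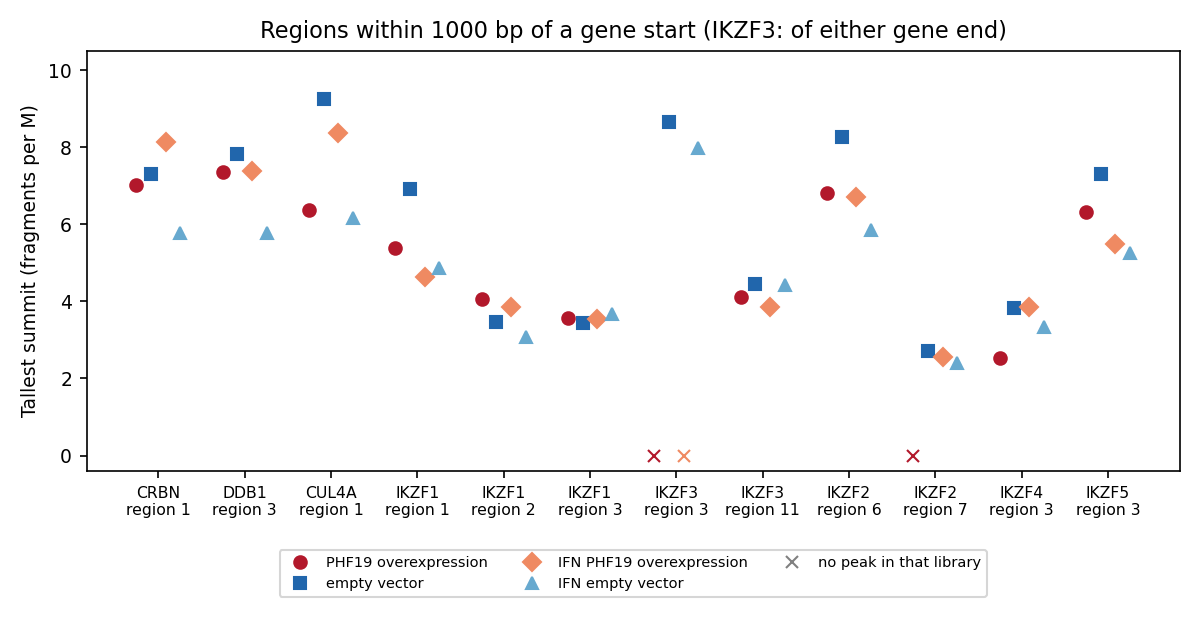
Height in fragments per M (vertical axis) of every region within 1000 bp of a member's start, for PHF19 overexpression, empty vector, IFN PHF19 overexpression and IFN empty vector from left to right in each column; crosses at 0 mark no listed peak. For IKZF3 both gene ends are shown. CRBN and DDB1 sit between 5.77 and 8.12 in all libraries, and IKZF3 region 3 has a height only in both empty vector libraries.

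Of the 3 promoter starts listed for IKZF1, which encodes the drug target Ikaros, the first and second were open in every library. IKZF1 (chr7:50303455-50405101) had its tallest region at the first promoter start, position 50304716 (region 1, chr7:50304123-50305400). Region 1 had 5.38 fragments per M in PHF19 overexpression and 6.91 in empty vector, and 4.64 in IFN PHF19 overexpression and 4.87 in IFN empty vector. The log2 ratios were −0.25 (−0.62 to 0.11) and −0.24 (−0.62 to 0.13). The second start lay in region 3 (chr7:50308262-50309320), where heights were 3.57 in PHF19 overexpression, 3.43 in empty vector, 3.54 in IFN PHF19 overexpression and 3.67 in IFN empty vector, with ratios of 0.17 (−0.31 to 0.64) and −0.22 (−0.66 to 0.20). Neither start was distinguishable between PHF19 overexpression and its empty vector by counting error. Region 2 (chr7:50306712-50307947), within 1000 bp of the second start, had ratios of 0.34 (−0.12 to 0.79) and 0.15 (−0.28 to 0.57). The third start, at position 50319048, lay in no region of any library. The summits of region 1 lay 259, 71, 251 and 248 bases downstream of the first start and those of region 3 186, 250, 202 and 200 bases downstream of the second, in the order above.

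Inside the IKZF1 body, 3 regions were more than 1.5-fold lower with PHF19 overexpression in both pairs. Region 10 (chr7:50396934-50398369), centred 94196 bp from the gene's lower end and the tallest of the body away from the starts in both empty vector libraries, had 33 fragments (1.81 per M) in PHF19 overexpression and 93 (3.40 per M) in empty vector, and 27 (1.65 per M) in IFN PHF19 overexpression and 236 (3.58 per M) in IFN empty vector. Both PHF19 overexpression libraries were lower, with log2 ratios of −0.80 (−1.42 to −0.21) and −1.29 (−1.92 to −0.71). Its neighbour, region 9 (chr7:50393162-50394519), had 1.43 fragments per M in PHF19 overexpression and 2.41 in empty vector, and 1.34 in IFN PHF19 overexpression and 2.82 in IFN empty vector (−0.65, −1.36 to 0.03; and −1.24, −1.95 to −0.60). The first of those intervals reaches past 0, so only the IFN pair was beyond counting error there. Region 4 (chr7:50331281-50332672), 28521 bp from the lower end, had 1.76 fragments per M in PHF19 overexpression and 3.22 in empty vector, and 1.65 in IFN PHF19 overexpression and 2.72 in IFN empty vector, with ratios of −0.76 (−1.39 to −0.16) and −0.89 (−1.53 to −0.30).

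The local background of the peak caller at regions 9 and 10 was also lower with PHF19 overexpression. It was recovered from the pileup and the authors' fold enrichment. With no control it comes from the library's own coverage, which can include these peaks, so it does not measure the surroundings separately. At region 10 it was 0.310 fragments per M in PHF19 overexpression and 0.691 in empty vector, and 0.325 in IFN PHF19 overexpression and 0.660 in IFN empty vector. At region 9 it was 0.321 in PHF19 overexpression and 0.697 in empty vector, and 0.328 in IFN PHF19 overexpression and 0.678 in IFN empty vector. At region 4 it was 0.186 in PHF19 overexpression and 0.268 in empty vector, and 0.204 in IFN PHF19 overexpression and 0.292 in IFN empty vector. Over the regions within 2.5 Mb of IKZF1 the median log2 ratio was −0.18 in the first pair and −0.22 in the IFN pair. With this local median removed, region 10 stayed past 1.5-fold in both pairs (−0.62 and −1.07). Region 4 lay on the 1.5-fold line in the first pair and past it in the IFN pair (−0.585 and −0.67). Region 9 was past it in the IFN pair alone (−0.47 and −1.02).

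IKZF1 region 6 (chr7:50350384-50350937) was listed in both empty vector libraries and in neither PHF19 overexpression library. It had 48 fragments (1.75 per M) in empty vector and 113 (1.71 per M) in IFN empty vector, and an equal height, after the same centring as the ratios, would have been about 30 fragments in PHF19 overexpression and 32 in IFN PHF19 overexpression. At a local background within 10% of that scaled from the empty vector libraries, the lowest peaks of both PHF19 overexpression lists had 14 fragments. A region of the empty vector height would thus have stood above the lowest peaks listed. The much weaker region 8 was listed in the same 2 libraries with 13 fragments in empty vector and 34 in IFN empty vector, which is near the detection limit.

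**Figure D2:**
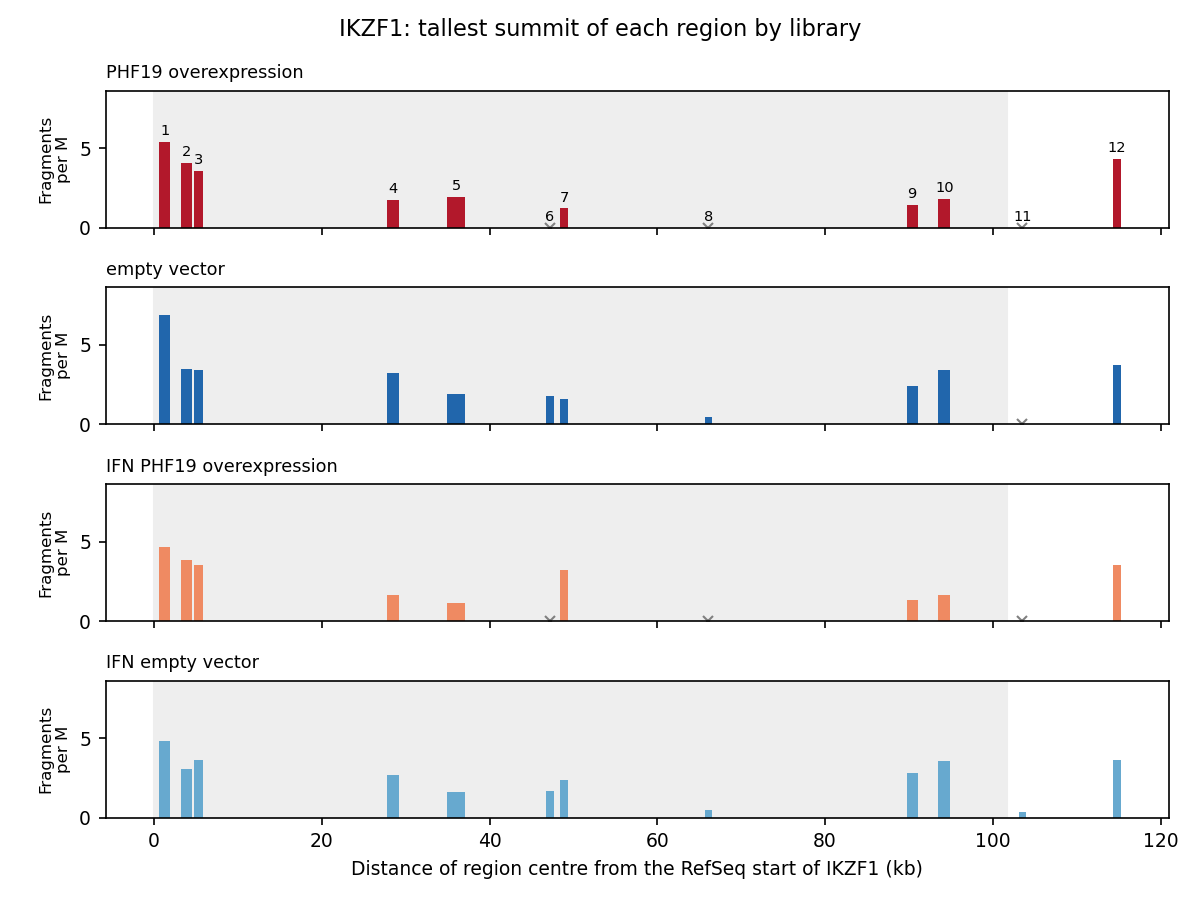
Height in fragments per M (vertical axis) of each numbered IKZF1 region against the distance in kb of its centre from the lower end of the gene, 1 panel per library; the grey band is the gene body and crosses mark no listed peak. Regions 9 and 10, near the far end of the gene, stand at 1.34 to 1.81 in both PHF19 overexpression libraries and at 2.41 to 3.58 in both empty vector libraries, while start region 1 runs from 4.64 to 6.91 over the libraries.

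IKZF3, which encodes Aiolos, had a start that differed little between libraries, 2 lower regions elsewhere in the locus with PHF19 overexpression, and 1 tall region with no listed peak in those libraries. The RefSeq table gives no strand for IKZF3 (chr17:39757715-39864312), and the gene is known to be read from its upper to its lower coordinate. Its known start lay in region 11 (chr17:39863924-39865602), which had 4.12 fragments per M in PHF19 overexpression and 4.46 in empty vector, and 3.85 in IFN PHF19 overexpression and 4.43 in IFN empty vector. The log2 ratios were −0.00 (−0.44 to 0.42) and −0.37 (−0.79 to 0.03), so the start was not distinguishable within either pair.

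A site inside the gene and another beyond its upper end were lower with PHF19 overexpression in both pairs. Region 4 (chr17:39769576-39770848), inside the gene and centred 12497 bp from its lower end, had 72 fragments (3.95 per M) in PHF19 overexpression and 254 (9.28 per M) in empty vector, and 82 (5.01 per M) in IFN PHF19 overexpression and 537 (8.15 per M) in IFN empty vector. Its log2 ratios were −1.12 (−1.52 to −0.74) and −0.87 (−1.22 to −0.53). Region 12 (chr17:39866969-39867926), centred 3135 bp beyond the upper end and within 1000 bp of the start of ZPBP2, had 74 fragments (4.06 per M) in PHF19 overexpression and 226 (8.26 per M) in empty vector, and 77 (4.70 per M) in IFN PHF19 overexpression and 520 (7.89 per M) in IFN empty vector. Its ratios were −0.91 (−1.31 to −0.53) and −0.91 (−1.28 to −0.57). In both regions each PHF19 overexpression library was below both empty vector libraries. Among all regions shared within a pair, 1.92% lay below region 4 in the first pair and 4.78% in the IFN pair, and 3.52% and 4.21% lay below region 12.

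Regions 2, 5, 6 and 11 of the same locus stayed within counting error in both pairs. Region 2 (chr17:39753861-39756554), just outside the lower end, had 12.4 fragments per M in PHF19 overexpression and 12.8 in empty vector, and 9.04 in IFN PHF19 overexpression and 8.86 in IFN empty vector, with ratios of 0.07 (−0.18 to 0.32) and −0.14 (−0.41 to 0.12). Its tallest summit in IFN empty vector was at position 39756103, away from 39754477 in IFN PHF19 overexpression, and on matched summits the IFN ratio was −0.11. The intervals of regions 2 and 4 did not overlap in either pair, and those of regions 11 and 12 did not overlap in the first pair but did in the IFN pair. Within 2.5 Mb of IKZF3 the median log2 ratio was −0.06 in the first pair and −0.02 in the IFN pair, and with it removed region 4 stood at −1.06 and −0.85 and region 12 at −0.85 and −0.89. The implied local background also differed at region 4, with 0.348 fragments per M in PHF19 overexpression and 0.783 in empty vector, and 0.460 in IFN PHF19 overexpression and 0.735 in IFN empty vector. This background can include the peak of region 4 itself, so it is not separate from the height difference.

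IKZF3 region 3 (chr17:39757896-39758584, 689 bp), just inside the lower end of the gene, was listed in both empty vector libraries alone. It had 237 fragments (8.66 per M) in empty vector and 526 (7.98 per M) in IFN empty vector, with summits at positions 39758227 and 39758238, and no peak in PHF19 overexpression or IFN PHF19 overexpression. By mean height in the empty vector libraries it ranked 2 among the 1353 regions of the genome with at least 1 fragment per M in both of those and no peak in either PHF19 overexpression library. It stands beside the tall region 2 on a high local background, 2.66 fragments per M in empty vector and 2.30 in IFN empty vector. The rank by height does not allow for this. Its fold enrichment was 3.22 in empty vector and 3.45 in IFN empty vector, and 6.56% and 18.9% of those lists had a lower one. At that background the lowest peaks had 73 fragments (4.01 per M) in the PHF19 overexpression list and 63 (3.85 per M) in the IFN PHF19 overexpression list. An equal height would have given 146 and 147 fragments, so the missing peaks place region 3 below the empty vector height, but a height of up to about 4 fragments per M could have gone unlisted.

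**Figure D3:**
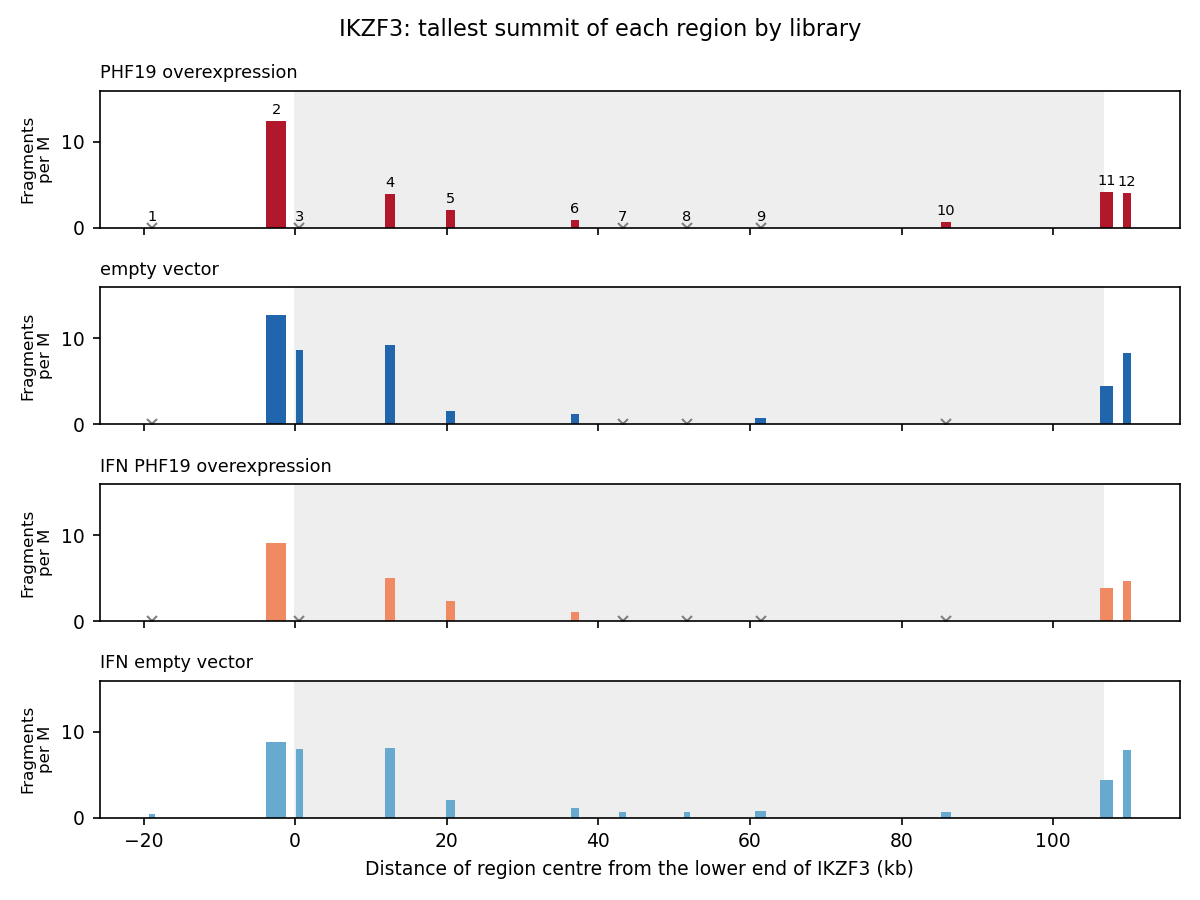
Height in fragments per M (vertical axis) of each numbered IKZF3 region against the distance in kb of its centre from the lower end of the gene, 1 panel per library; the grey band is the gene body and crosses mark no listed peak. Region 3 is present in both empty vector panels alone, and regions 4 and 12 reach 3.95 to 5.01 in both PHF19 overexpression libraries against 7.89 to 9.28 in both empty vector libraries.

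The starts of the remaining Ikaros genes were open in every library, and no region with a peak in all 4 libraries was past 1.5-fold in both pairs. IKZF2 (chr2:212999698-213152456) had at its start (region 6, chr2:213150948-213152790) 6.80 fragments per M in PHF19 overexpression and 8.26 in empty vector, and 6.72 in IFN PHF19 overexpression and 5.86 in IFN empty vector (log2 ratios −0.17, −0.50 to 0.15; and 0.03, −0.29 to 0.34). The summits lay 387 to 416 bases inside the gene, downstream of the printed promoter. The tallest region of its body away from the start, region 1 (chr2:213014946-213016446), had 3.62 fragments per M in PHF19 overexpression and 4.68 in empty vector, and 4.15 in IFN PHF19 overexpression and 5.17 in IFN empty vector. It was lower beyond counting error in the IFN pair (−0.48, −0.88 to −0.11) and not in the first (−0.26, −0.71 to 0.18).

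Upstream of IKZF2, region 8 was missing from both PHF19 overexpression libraries and region 7 from the unprefixed one alone. Region 8 (chr2:213157271-213157629) had 53 fragments (1.94 per M) in empty vector and 133 (2.02 per M) in IFN empty vector and no peak in either PHF19 overexpression library, where an equal height would have been about 33 and 37 fragments and the lowest peaks at that background had 17 and 16. Region 7 (chr2:213153447-213154245) had no peak in PHF19 overexpression and 74 fragments (2.70 per M) in empty vector, but 2.56 per M in IFN PHF19 overexpression and 2.40 in IFN empty vector. Its absence was limited to the unprefixed pair, where an equal height would have been about 46 fragments and the lowest peaks at that background had 35. In the middle of the gene, region 4 (chr2:213082909-213083716) was listed with the prefix IFN alone, at 8 fragments (0.489 per M) in IFN PHF19 overexpression and 73 (1.11 per M) in IFN empty vector, and its ratio of −1.35 has a wide interval (−2.61 to −0.29) because 8 fragments is the lowest count that list holds.

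IKZF4 (chr12:56007504-56038435) had a low start, with 2.52 fragments per M in PHF19 overexpression and 3.84 in empty vector, and 3.85 in IFN PHF19 overexpression and 3.32 in IFN empty vector (region 3, chr12:56006754-56008262). The ratios were −0.49 (−1.03 to 0.02) and 0.04 (−0.38 to 0.45), neither beyond counting error. The tallest regions in its window, at 10.1 to 14.3 fragments per M, lay outside the gene, and 2 of those 3 were at the starts of SUOX and RPS26. In its body, region 5 had 1.37 fragments per M in PHF19 overexpression and 1.24 in empty vector, and 0.977 in IFN PHF19 overexpression and 1.27 in IFN empty vector, while the weak region 4 held 10 fragments in IFN PHF19 overexpression and 20 in IFN empty vector, a ratio of 0.84 whose interval (−0.42 to 2.00) spans 0. IKZF5 (chr10:122990806-123008795) shares its start region (chr10:123007929-123009792) with ACADSB, and it had 6.31 fragments per M in PHF19 overexpression and 7.31 in empty vector, and 5.50 in IFN PHF19 overexpression and 5.25 in IFN empty vector. Both of its ratios were −0.10, and the counting intervals spanned 0. Its body held only the weak region 2, with no peak in PHF19 overexpression and 10 fragments in empty vector, and 8 in IFN PHF19 overexpression and 30 in IFN empty vector.

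Counted over the 8 loci, regions past 1.5-fold in both PHF19 pairs were all lower and all in IKZF1 or IKZF3. In PHF19 overexpression against empty vector, 5 of 33 shared regions were more than 1.5-fold lower and 0 were higher, where the shares over all 38367 shared regions were 9.16% lower and 12.8% higher. In the IFN pair 7 of 37 were lower and 2 higher, against 10.9% and 11.8% of 43106. The same 5 regions, IKZF1 regions 4, 9 and 10 and IKZF3 regions 4 and 12, were lower in both pairs, of 33 with a peak in all 4 libraries (5.36% of 35731 over the genome), and 0 were higher in both (4.15%). The shares of lower regions were above those of the genome, but regions of 1 locus are not independent and counts this small were not tested. With the local median removed, 3 stayed lower in both pairs, namely IKZF1 region 10 and IKZF3 regions 4 and 12, while IKZF1 region 4 lay on the 1.5-fold line in the first pair. The median log2 ratio over the loci was −0.10 in each pair beside a centre of 0 over all regions, and with no centring it was 0.066 in the IFN pair. Away from gene starts, 4 of 18 regions with a peak in all 4 libraries were lower in both pairs and 0 higher (7.3% and 4.95% over the genome).

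Peaks missing with PHF19 overexpression were no more frequent than over the genome within either pair. Those missing from both PHF19 overexpression libraries were above the genome shares, on small counts that were not tested. In the first pair, 2 of 43 regions had a peak in PHF19 overexpression alone and 8 in empty vector alone (9.59% and 19.2% over the genome). In the IFN pair, 0 of 49 had one in IFN PHF19 overexpression alone and 12 in IFN empty vector alone (2.85% and 37.1%), where the second library held 65.9 M fragments and the first 16.4 M. Both empty vector libraries alone held 6 of the 49 (8.64% over the genome): IKZF1 regions 6 and 8, IKZF3 regions 3 and 9 and IKZF2 regions 2 and 8. Both PHF19 overexpression libraries alone held 0 (0.583%). Of the 36 regions with at least 1 fragment per M in both empty vector libraries, 3 had no peak in either PHF19 overexpression library (4.21% over the genome): IKZF1 region 6, IKZF3 region 3 and IKZF2 region 8.

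**Figure D4:**
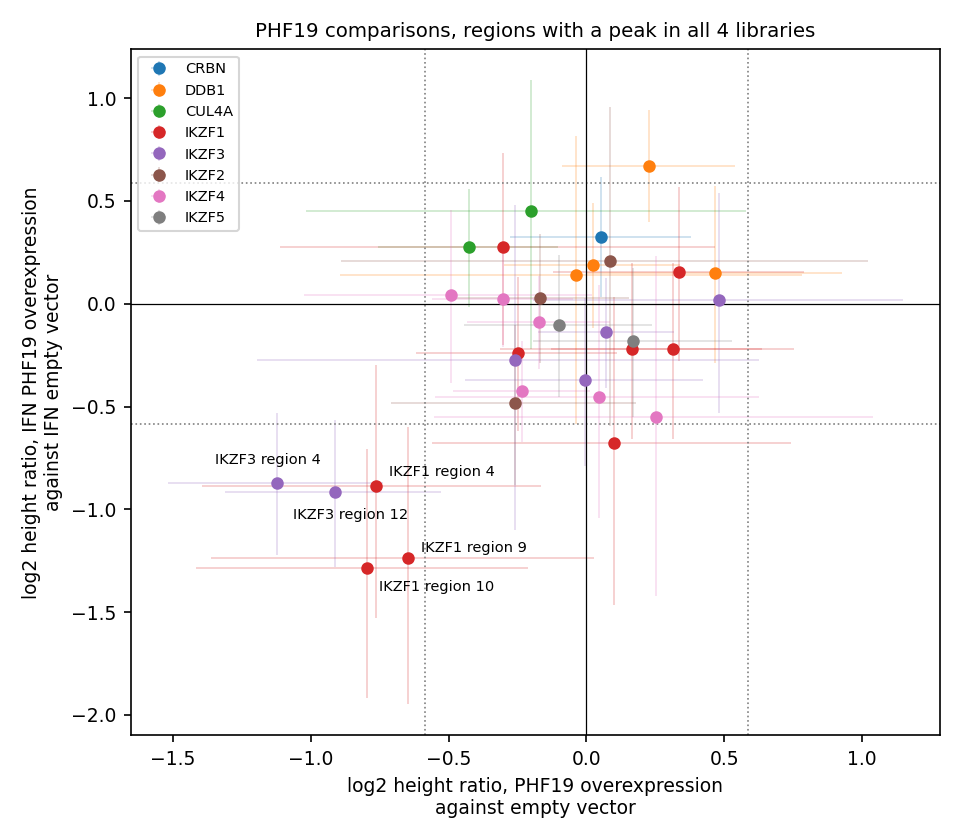
Centred log2 height ratios of the 33 member regions with a peak in all 4 libraries, PHF19 overexpression against empty vector (horizontal) and IFN PHF19 overexpression against IFN empty vector (vertical); lines are exact 95% counting intervals and dotted lines mark 1.5-fold. The 5 labelled IKZF1 and IKZF3 regions lie below 1.5-fold on both axes, and no region lies above it on both.

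Regions past 1.5-fold with the IFN prefix were few at these loci. Against empty vector, IFN empty vector was more than 1.5-fold higher in 1 of 41 shared regions and lower in 0 (6.22% and 1.81% over the genome). Against PHF19 overexpression, IFN PHF19 overexpression was higher in 1 of 34 and lower in 2 (6.65% and 3.64%). The region higher with both vectors was IKZF1 region 7 (chr7:50352056-50352597), inside the gene and 48871 bp from its lower end, and 0 regions were lower with both (0.792% and 0.0532% over the genome). It had 157 fragments (2.38 per M) in IFN empty vector and 44 (1.61 per M) in empty vector, and 53 (3.24 per M) in IFN PHF19 overexpression and 22 (1.21 per M) in PHF19 overexpression. Both IFN-prefixed libraries were above both unprefixed ones, with log2 ratios of 0.65 (0.16 to 1.17) and 1.31 (0.57 to 2.1). With the local median removed the ratios were 0.49 and 1.37, so the first fell under 1.5-fold.

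The lower regions of the prefixed PHF19 overexpression library were IKZF1 region 5, at 1.16 fragments per M in IFN PHF19 overexpression and 1.92 in PHF19 overexpression (−0.84, −1.73 to 0.00), and IKZF4 region 5, at 0.977 and 1.37 in that order (−0.60, −1.61 to 0.36). Neither was beyond counting error. Several starts were lower in IFN empty vector than in empty vector at under 1.5-fold: CUL4A at −0.50 (−0.73 to −0.27), IKZF1 region 1 at −0.42 (−0.68 to −0.15), IKZF2 region 6 at −0.41 (−0.65 to −0.17), IKZF5 at −0.39 (−0.65 to −0.13), DDB1 at −0.35 (−0.60 to −0.11) and CRBN at −0.26 (−0.51 to −0.00). With PHF19 overexpression the same starts gave 0.28, −0.33, −0.13, −0.31, −0.11 and 0.09, without one direction. IKZF3 region 2, just outside the lower end of that gene, was lower with the prefix for both vectors beyond counting error, though under 1.5-fold. Its ratios were −0.44 (−0.63 to −0.24) for the empty vector libraries and −0.57 (−0.88 to −0.27) for the PHF19 overexpression libraries. Of all shared regions 5.27% and 3.91% lay below it. Lower starts in IFN empty vector than in empty vector were not particular to the members: the median over start regions was −0.16 for the 20 ligase partners, −0.27 for the other degraded proteins described below and −0.28 for the NuRD genes. A peak in IFN empty vector alone was found in 8 of 49 regions and in empty vector alone in 0 (31.1% and 1.41% over the genome), and a peak in IFN PHF19 overexpression alone in 3 of 38 and in PHF19 overexpression alone in 1 (13.9% and 10.7%). Both prefixed libraries alone held 1 region, IKZF2 region 4 (3.24% over the genome), and both unprefixed libraries alone held 0 (0.0583%).

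**Figure D5:**
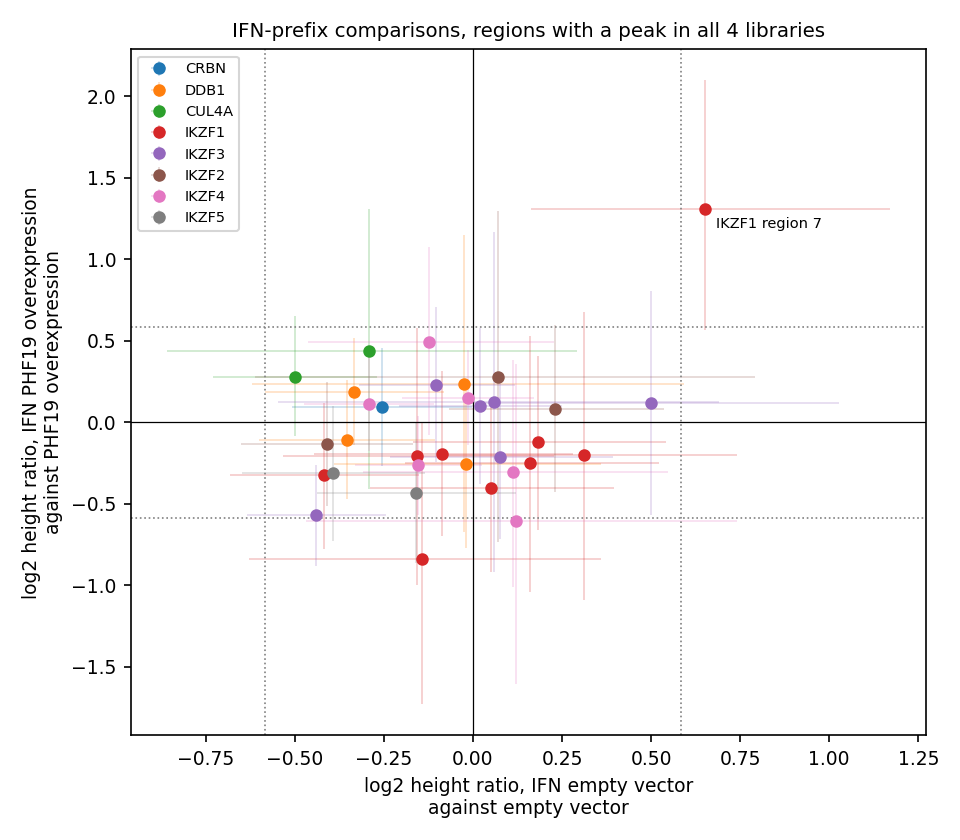
Centred log2 height ratios of the 33 member regions with a peak in all 4 libraries, IFN empty vector against empty vector (horizontal) and IFN PHF19 overexpression against PHF19 overexpression (vertical); lines are exact 95% counting intervals and dotted lines mark 1.5-fold. IKZF1 region 7, at 0.65 and 1.31, is the 1 region above 1.5-fold on both axes.

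Other proteins that drug-bound cereblon can mark for degradation, and the NuRD chromatin remodelling complex with which Ikaros factors associate, were read at their gene starts. Of 8 other degraded proteins 6 had a start peak in all 4 libraries, and ZBTB16 and SALL4 had none in any. None of the 6 passed 1.5-fold in any comparison, where 1.81% to 12.8% of all shared regions did in a given direction. The translation termination factor gene GSPT1 had ratios of −0.23 (−0.54 to 0.07) and 0.04 (−0.25 to 0.32) in the PHF19 pairs, while CSNK1A1, a casein kinase that lenalidomide-bound cereblon takes up, had 14.3 fragments per M in PHF19 overexpression and 11.8 in empty vector, and 13.6 in IFN PHF19 overexpression and 8.41 in IFN empty vector (0.38, 0.14 to 0.62; and 0.52, 0.29 to 0.75). All 13 NuRD genes had a start peak in every library. The 1 of 13 that passed 1.5-fold in both pairs was MTA3, a NuRD subunit, with 5.49 fragments per M in PHF19 overexpression and 10.2 in empty vector, and 5.31 in IFN PHF19 overexpression and 8.27 in IFN empty vector (−0.78, −1.13 to −0.45; and −0.81, −1.15 to −0.48). Over the genome, starts and other regions together, 5.36% of regions with a peak in all 4 libraries were lower in both pairs and 4.15% higher. Whether 1 of 13 differs from that share was not tested.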

How the data were processed

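ATAC-seq peak lists of 4 AMO1 libraries, 1 per group, were analysed. The authors called peaks for each library separately with MACS2 2.1.2 on paired fragments without a control, with q limited to 0.01, duplicates retained, summits split and 3000000000 as genome size, per the file headers. Trimmomatic 0.38, bcl2fastq 2.17, DiffBind and hg38 are listed per the submitters' processing notes. For the aligner and any Tn5 shift, nothing is given in the sources used here. Pileup as deposited is the signal, the unscaled coverage at a summit. The deposited −log10 p-value was not used, the deposited −log10 q-value served to filter and rank peaks within a list, and the deposited fold enrichment, which is relative to local background, served to recover that background, as (pileup + 1) divided by the fold enrichment, less 1. Duplicates were kept, so fragments are not all independent molecules.

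Peaks of the 4 lists were merged at 1 bp of overlap. A region's height was its tallest pileup per M fragments, log2 ratios were centred on all regions shared by both libraries (centres −0.11, 0.17, −0.09 and 0.11 in the order of the comparisons), and a region was called at 1.5-fold. Gene positions and promoters came from RefSeq tables on GRCh38.p14, the build of the files. Of 19970 protein-coding genes 15811 had a strand there, and for the others either gene end counted as a start. Exons were not used, so regions are placed by gene body, flank and start only. Named regions are the starts, the tallest region of each body, those at 1 fragment per M or more in 1 library of a pair alone and those called in both pairs; others were added after their values were seen. The members and lists were chosen with earlier results of these data known. Alternatives were a stricter q, no flank, lists of equal length, 50% overlap, other centres and matched summits. The steps were tested on simulated data with Python 3.11.15, numpy 2.4.6, pandas 2.3.3 and scipy 1.17.1; figures used matplotlib 3.10.9.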

Additional observations from a re-analysis of the deposited data

How the results depend on the processing

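No paired analysis was possible because the results come from no test: each group holds 1 library, none was left out within a group, and no fit over both pairs was made. Named height ratios were recomputed with no centring (80 values), with the local median removed (80) and on matched summits (78): all stayed inside their counting intervals, and the sign changed in 9, 7 and 0 of them. A count within 1.5 times its value, and a median within its rank-based interval, is listed below only for lists of equal length. Matched summits changed no count. Over the alternatives the median of PHF19 overexpression against empty vector ran from −0.21 (no centring) to −0.10, and stood at −0.17 on matched summits. At a q of 1e-05, 1 region was higher in the IFN pair, 1 had a peak in IFN PHF19 overexpression and 2 in PHF19 overexpression alone when these were compared, and 0 in both prefixed libraries alone. Within the gene bodies alone, 23 regions had a peak in PHF19 overexpression, 27 in empty vector, 24 in IFN PHF19 overexpression and 21 in all 4, and 1 was higher in the IFN pair. With lists of equal length, peaks in empty vector alone against PHF19 overexpression fell to 6, those in IFN empty vector alone against IFN PHF19 overexpression to 8 and those in both empty vector libraries alone to 4. The others came to 1 for IFN PHF19 overexpression against IFN empty vector, 4 for IFN empty vector and 1 for empty vector when those were compared, 1 for IFN PHF19 overexpression against PHF19 overexpression, 1 for both PHF19 overexpression libraries and 0 for both prefixed ones. At 50% overlap, 1 peak was in IFN PHF19 overexpression alone against IFN empty vector. With no centring, the IFN pair's median log2 ratio was 0.066, IFN empty vector against empty vector had 0 higher and 1 lower, IFN PHF19 overexpression against PHF19 overexpression 2 higher and 1 lower, and 0 were higher with the prefix in both vectors. With the local median removed, 3 were lower in PHF19 overexpression against empty vector, 3 in both pairs, 1 was higher in the IFN pair, 0 in IFN empty vector against empty vector and 0 with the prefix in both vectors. Counts near 0 move by large factors with 1 region. Setting both PHF19 overexpression libraries against the empty vector library alone, an alternative chosen after seeing the data, moved none of 3 values. The cause of these changes was not tested. Depth limits the weak regions: a summit under about 1 fragment per M can be listed in IFN empty vector and missed elsewhere.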

Other observations

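The start regions whose pattern over the 4 libraries was nearest to that of 3 members were looked up among 12208 genes, by the Euclidean distance of the centred log2 heights with the mean over libraries removed. Nearest to CRBN were COPA and NCSTN, which share a region (0.02), and NOL3 (0.03), beside a median distance of 0.34 over all genes. Nearest to IKZF1 were ODAD1, DIS3L and ACSL4 (0.03 each, median 0.39), and nearest to the upper end of IKZF3 were THSD7A, HSPA13 and ZNF724 (0.03 each, median 0.36). Over the 33 regions of the 8 loci, Pearson's r of the ratios in both PHF19 pairs was 0.57, and over all 35731 regions 0.63, as a description across regions that come from the same 4 libraries.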
